A study of Homo sapiens with 30 samples.

Results

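The genes described here encode the proteins of the mitochondrial ribosome. They were taken from the deposited expression table by name, as every row whose symbol is MRPL or MRPS followed by a number and, at most, one letter from A to C, which gave 77 of the 26228 genes listed. The rule uses names and no measured value. Of the 77 genes, 48 carry an MRPL symbol and 29 an MRPS symbol. By their place in the assembled ribosome, 50 products belong to the large subunit, MRPS18A and MRPS30 among them in spite of their names, and 26 belong to the small subunit. The product of MRPS36 is now counted as a component of the oxoglutarate dehydrogenase complex and not as a ribosomal protein.

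Mitochondria translate the few respiratory chain proteins that their own genome encodes on a dedicated ribosome, whose RNAs are mitochondrial and whose proteins are all encoded in the nucleus, made in the cytosol and imported. Some of these proteins have a counterpart in bacterial ribosomes (46 of the genes here) and others are found in mitochondria alone (30 of the genes). MYC family proteins are transcription factors best known for raising the expression of genes of ribosome production, nucleotide metabolism and mitochondrial function, and they bind the E-box CACGTG. CDK9 phosphorylates RNA polymerase II and releases it from its pause near the start of genes, so that its inhibition lowers transcription widely and the mRNAs that turn over fastest are lost first.

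SH-EP, an established line from a human NB, is mesenchymal in character and has no amplified MYCN. The 4 derivatives had been made by retroviral transduction, so that an exogenous promoter drives MYCN as WT, T58A, S62A or T58A S62A (the double mutant), the alanine changes falling on phosphorylation sites that govern the turnover of the protein. Each of the 5 lines was kept in DMEM with 10% FBS and given DMSO or 1 μM CYC065 (fadraciclib, an inhibitor of CDK2 and CDK9) for 6 hours, with 3 RNA-seq libraries in each of the 10 groups and ERCC spike-in RNAs added by cell number. Each MYCN line is a single transduced population and SH-EP without a transgene is the control, so the effect of the transgene and of the derivation of a line cannot be told apart, and nothing in the labels says whether the 3 libraries of a group came from separate cultures, so that p-values measure the spread between libraries, which may be technical.

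Values are FPKM (fragments per kilobase of transcript, scaled to the mapped fragments of the library). They are relative to their library but are not shares of a constant total. The FPKM of a library summed to 415637 to 496771 in DMSO and to 667866 to 761639 with CYC065. MYCN was listed at 0 in all SH-EP libraries and at means of 12.9 FPKM in WT, 8.52 FPKM in T58A, 5.72 FPKM in S62A and 13.5 FPKM in the double mutant in DMSO. The mesenchymal genes were expressed in every library, VIM at 1305 to 4599 FPKM, but at levels that differed several-fold, PRRX1 at 107 to 117 FPKM in SH-EP in DMSO and down to 21.6 FPKM elsewhere, FN1 at 301 to 305 and 27.0 to 530 FPKM, and SNAI2 at 20.5 to 21.9 and down to 4.64 FPKM, and the part of that difference in the results was not tested. Of the adrenergic genes PHOX2A was listed at 0 in every library and DBH was at 0.030 FPKM or less. Libraries are numbered in the order of the columns of a group. Those of CYC065-treated cells were the shallower ones, at relative depths of 0.291 to 0.551 of the deepest library against 0.467 to 1 in DMSO, judged from the spacing of the lowest values. Changes are given as log2 differences of FPKM + 0.1 fitted with limma over the 11575 genes that averaged at least 1 FPKM, and called at an adjusted p (Benjamini-Hochberg) below 0.05. All 77 genes of the mitochondrial ribosome passed that filter, with values from 1.63 to 530 FPKM in the 30 libraries.

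In SH-EP cells in DMSO these genes were expressed at moderate to high levels. Their mean levels ran from 7.44 FPKM for MRPL22, whose bacterial counterpart lines the exit tunnel, to 192 FPKM for MRPL51, a protein of the large subunit found only in mitochondria. The median member stood at 38.2 FPKM against 10.8 FPKM for all tested genes, and 73 of the 77 lay above the latter value. The highest after MRPL51 were MRPS6 at 166 ± 5.91 FPKM, MRPL12 at 157 ± 5.21 FPKM and MRPL33 at 147 ± 11.5 FPKM (SD, n = 3). MRPS6 belongs to the small subunit, MRPL12 forms the stalk that recruits translation factors, and MRPL33 belongs to the large subunit. The lowest were MRPL22, MRPS25 at 8.25 ± 0.358 FPKM, MRPL19 at 8.68 ± 0.158 FPKM and MRPL30 at 10.2 ± 0.593 FPKM (SD, n = 3). The mRNA levels of members thus differed up to 25.8-fold per length. Libraries of a group differed little, with a median coefficient of variation of 5.80% over genes and groups.

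The genes are scattered over 21 chromosomes, and 36 of them have annotated pseudogenes named after them (80 in all), to which reads of the parent gene can also align. A coding gene on the opposite strand starts within 1000 bases of the start of 17 of the 77 (22.1%), against 8.45% of 20163 annotated coding genes. One such pair lies within the group itself, MRPL46 and MRPS11, whose starts are 63 bases apart.

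Promoters are shown because MYC proteins bind DNA by sequence and because most of the genes moved in 1 direction in the MYCN lines. RefSeq promoters (GRCh38.p14, 250 bases before to 50 after the start site) were matched for 69 of the 77 genes. The E-box CACGTG occurred in 7 of the 69 (10.1%), against 7.43% of all 27305 promoters and 8.62% of those of genes in the expression table. In the same order, the related CACGCG occurred in 10 (14.5% against 11.4% and 14.4%), and the core of the NRF1 consensus, NRF1 being a regulator of nuclear genes for mitochondria, in 8 (11.6% against 6.28% and 8.07%). GGGCGG, the core of sites bound by SP1, was found in 42 (60.9% against 44.6% and 56.1%). The motif furthest from its share among all promoters was CCGGAAG, the core of sites bound by ETS factors such as GABP, found in 28 (40.6%) against 10.7% of all promoters and 13.4% of those of genes in the expression table. Both strands were searched, and none of the 5 motifs contains another. Of the 37 CCGGAAG matches, 26 began within 100 bases before the start site, 6 lay after it and 5 lay further upstream. A match is a description of letters and not of binding.

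Of the 7 promoters with an E-box, 3 are printed as 60 bases on the strand of the gene, with CACGTG in capitals, for the gene of lowest level, for one of 3 paralogs and for the gene whose product is not ribosomal:
MRPL22: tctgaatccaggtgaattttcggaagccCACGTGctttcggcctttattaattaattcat
MRPS18C: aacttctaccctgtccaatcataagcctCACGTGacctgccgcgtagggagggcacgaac
MRPS36: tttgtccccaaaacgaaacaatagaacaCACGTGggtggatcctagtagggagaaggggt
They lie at chr5:154940869-154940928, chr4:83455851-83455910 and chr5:69217606-69217665 of GRCh38.p14, all on the plus strand, with the E-box beginning 176, 179 and 126 bases before the start site.

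Next come 6 promoters with CCGGAAG (or its reverse complement CTTCCGG) in capitals, the first 3 from genes among the 6 most lowered by CYC065 and the other 3 from genes among the 6 least lowered by it or the 6 of lowest change in the MYCN lines:
MRPS31: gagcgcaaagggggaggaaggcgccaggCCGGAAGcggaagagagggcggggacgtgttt
MRPS26: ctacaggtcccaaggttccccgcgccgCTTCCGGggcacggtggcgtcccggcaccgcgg
MRPS18A: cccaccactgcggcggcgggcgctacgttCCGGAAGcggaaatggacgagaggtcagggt
MRPL53: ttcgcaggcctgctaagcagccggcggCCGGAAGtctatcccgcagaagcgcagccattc
MRPS10: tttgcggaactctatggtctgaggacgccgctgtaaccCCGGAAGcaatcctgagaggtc
MRPL33: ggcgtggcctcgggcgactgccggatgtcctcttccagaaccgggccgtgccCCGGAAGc
In order they lie at chr13:40771191-40771250, chr20:3045988-3046047, chr6:43687792-43687851, chr2:74472720-74472779, chr6:42217862-42217921 and chr2:27771659-27771718 of GRCh38.p14, with MRPS26 and MRPL33 on the plus strand and the others on the minus strand. The motif begins 32, 37, 31, 72, 22 and 8 bases before the start site. The same letters thus stand close to the start of genes at both ends of the range of responses described next.

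The first comparison set each MYCN line beside the SH-EP control in DMSO and asks how the mRNAs of the mitochondrial ribosome differ in cells with an MYCN transgene. In the values as deposited, most were higher in every MYCN line, a direction that turned with spike-in scaling. In the WT line 67 of the 77 were higher and 2 lower (31.6% and 22.6% of all tested genes). In T58A the counts were 58 and 4 (30.9% and 23.3%), in S62A 53 and 11 (31% and 23.4%), and in the double mutant 64 and 4 (31.2% and 24.1%). The median changes were 0.59, 0.48, 0.37 and 0.51 on the log2 scale, where the median of all tested genes was 0.07, 0.05, 0.06 and 0.06. The 4 comparisons use the same 3 SH-EP libraries and are therefore not independent. In all 4 lines 49 genes were higher (19.2% of all tested genes) and 2 were lower (13.4%), and for 49 genes each of the 12 MYCN libraries lay above each of the 3 SH-EP libraries (21.8%), the reverse holding for 1, MRPS6 (16.5%).

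This direction belongs to the values as deposited, which are relative to the mapped fragments of each library. When libraries were scaled to the spike-ins, and so to cell number, 0, 1, 0 and 0 of the genes were higher in WT, T58A, S62A and the double mutant and 65, 43, 77 and 32 were lower by limma (0.994%, 1.87%, 0.389% and 2.27% of all tested genes higher and 88.5%, 77.6%, 95% and 69.7% lower), with medians of -0.66, -0.47, -1.58 and -0.32, against -1.16, -0.88, -1.86 and -0.75 for all tested genes. The scaling moves all genes of a library by 1 factor, so that the place of the family among all genes is nearly the same on both scales. Whether the yield of spike-ins or the RNA content of the cells differed between the lines cannot be told apart. By the labels each of the 6 SH-EP libraries also has an index sequence that 1 of the 24 MYCN-line libraries has, while those 24 all differ, and whether the sequencing of SH-EP was separate was not tested.

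**Figure D1:**
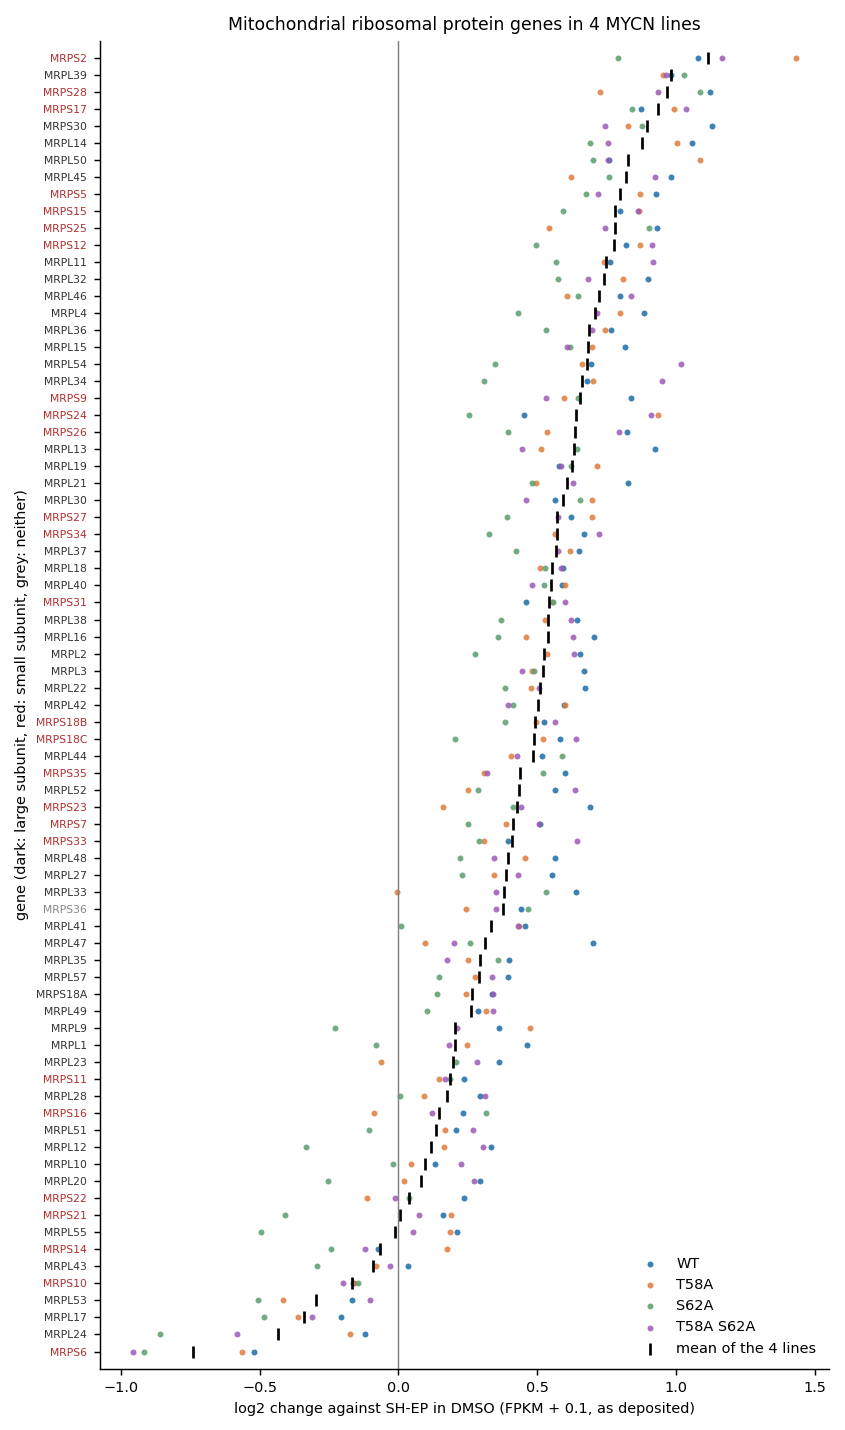
Change of each of the 77 genes in the 4 MYCN lines against SH-EP in DMSO, as log2 difference of deposited FPKM + 0.1 on the x axis, 1 gene a row, ordered by the mean of the 4 lines (black bar), with points coloured by line. Most genes lie to the right of 0, from MRPS2 at a mean of 1.12 down to MRPS6 at -0.74, and with spike-in scaling the mean of the 4 lines was below 0 for MRPS2 as well.

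Averaged over the 4 lines, 63 genes were higher and 5 lower (34.6% and 26.3% of all tested genes), and both subunits took part. In that average 41 of 50 large-subunit genes were higher and 3 lower, with a median change of 0.51, and 21 of 26 small-subunit genes were higher and 2 lower, with a median of 0.52. Genes with a bacterial counterpart had a median of 0.52 (35 of 46 higher, 4 lower) and those found in mitochondria alone a median of 0.50 (27 of 30 higher, 1 lower). The summed level of the large subunit stood to that of the small at 1.99 ± 0.0274 in SH-EP and 2.05 ± 0.0365 in WT (SD, n = 3), and at 1.86 ± 0.0302, 1.95 ± 0.0529 and 1.90 ± 0.0264 in T58A, S62A and T58A S62A.

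MRPS2, a small-subunit protein with a bacterial counterpart (GRCh37 chr9:138391830-138396519), had the largest mean change. Its level in DMSO was 38.0, 34.8 and 34.2 FPKM in the SH-EP libraries, 89.3, 70.1 and 68.2 in WT, 98.0, 96.5 and 94.7 in T58A, 61.7, 59.6 and 63.9 in S62A, and 86.6, 71.3 and 82.9 in the double mutant. No MYCN library overlapped the SH-EP range, and T58A was highest. The log2 changes were 1.08, 1.43, 0.79 and 1.17 (SE 0.10 each, adjusted p = 1.6e-09, 9.69e-12, 2.47e-07 and 3.55e-10).

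MRPL39, a large-subunit protein found only in mitochondria (GRCh37 chr21:26957968-26979829), read 18.9, 19.6 and 20.4 FPKM in SH-EP and 33.4 to 49.1 FPKM in the 12 MYCN libraries. The 4 lines stood level, with log2 changes of 0.95 to 1.03 and adjusted p from 1.24e-07 to 3.81e-07. MRPS30 (GRCh37 chr5:44809049-44820530), a large-subunit protein in spite of its symbol, read 16.9 to 18.4 FPKM in SH-EP and up to 40.0 FPKM and no less than 26 FPKM in the MYCN libraries, a mean change of 0.89 (SE 0.09, adjusted p = 6.49e-09). MRPS17, of the small subunit, rose by a mean of 0.94 (adjusted p = 2.19e-09), and MRPS28, also of the small subunit, by 0.97 (adjusted p = 2.14e-08). MRPL14, which lies at the face between the subunits, where assembly factors dock, rose by 0.88 (adjusted p = 1.28e-09). MRPS12, which lies at the decoding centre, rose by 0.78 (adjusted p = 8.8e-09), reading 82.4 ± 14.5 FPKM in the double mutant against 43.2 ± 2.54 FPKM in SH-EP (SD, n = 3). On the spike-in scale the mean changes of MRPS2 and these 6 genes were -0.13 to -0.47.

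A small set went the other way. MRPS6 (GRCh37 chr21:35445524-35515334) read 170, 159 and 168 FPKM in SH-EP, 118, 119 and 109 in WT, 114, 108 and 114 in T58A, 93.5, 79.6 and 90.2 in S62A, and 89.2, 80.9 and 86.0 in the double mutant. It was the only one of the 77 whose 12 MYCN libraries all lay below SH-EP, with log2 changes of -0.52, -0.56, -0.92 and -0.96 (adjusted p = 1e-07, 2.83e-08, 6.13e-12 and 2.27e-12). SLC5A3, a sodium/myo-inositol transporter gene that overlaps MRPS6 on the same strand, fell as well, by 1.38 on the log2 scale over the 4 lines (adjusted p = 5.05e-11), and how far reads of the pair were split in the count was not tested. MRPL17, of the large subunit, was lower in all 4 lines too, with changes from -0.21 to -0.48, though its libraries overlapped those of SH-EP.

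MRPL24, a large-subunit protein, separated the lines. It read 101, 101 and 102 FPKM in SH-EP, 102, 91.7 and 86.7 in WT, 93.3, 100 and 77.1 in T58A, 53.4, 55.8 and 58.5 in S62A, and 70.5, 63.8 and 69.1 in the double mutant. A WT library reached into the SH-EP range, the T58A libraries lay below it, the highest only just, and those of S62A and T58A S62A lay clear below it, with log2 changes of -0.12 (adjusted p = 0.178), -0.18 (adjusted p = 0.047), -0.86 (adjusted p = 6.79e-10) and -0.58 (adjusted p = 3.52e-07). MRPL53, found only in mitochondria and overlapped on its strand by CCDC142, passed the test in T58A (-0.42, adjusted p = 0.000109) and S62A (-0.51, adjusted p = 9.12e-06), and had -0.17 in WT and -0.10 in the double mutant. MRPS10 passed in the double mutant (-0.20, adjusted p = 0.0431) and MRPL43 in S62A (-0.29, adjusted p = 0.00353). In all, 12 genes were lower in at least 1 line (35.3% of all tested genes), and 4 of them (MRPL9, MRPL12, MRPL20 and MRPS14, counted after their values were seen) were also higher in another (3.36%).

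**Figure D2:**
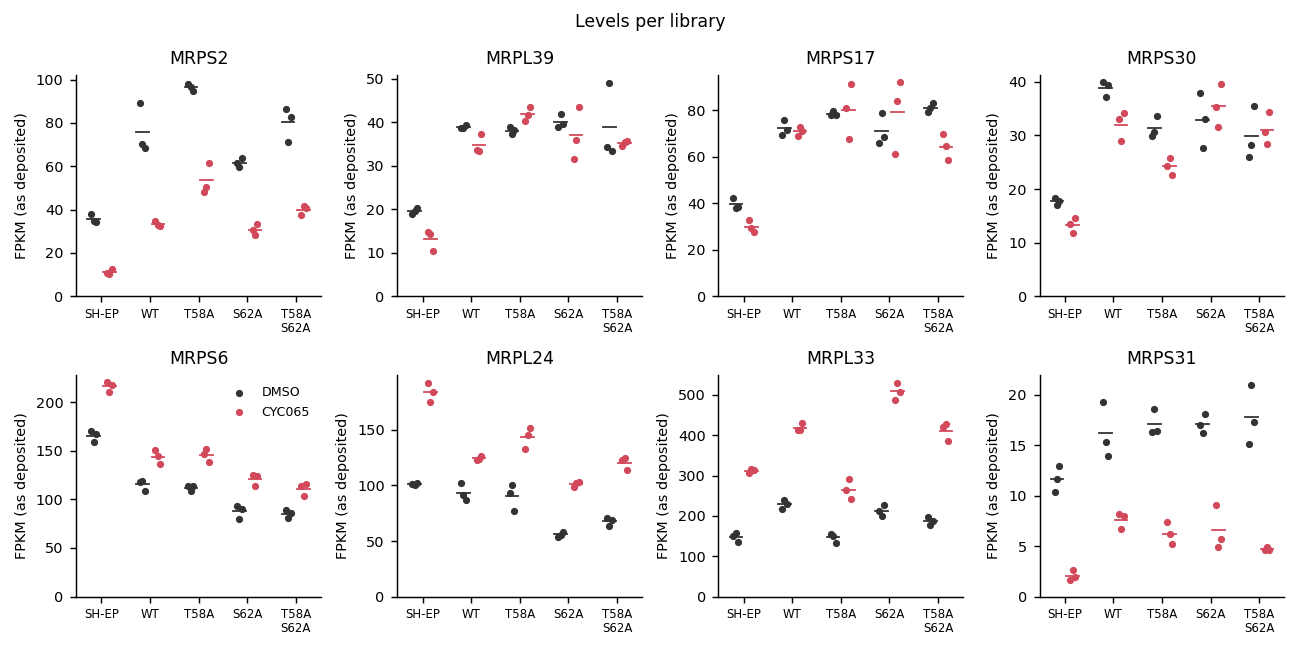
Deposited FPKM of 8 genes in each of the 30 libraries, by line on the x axis, with DMSO in black and CYC065 in red, points for libraries and a bar for the mean of 3. The upper row holds genes whose DMSO levels in the MYCN lines lay above SH-EP, as with MRPS2 at 59.6 to 98.0 FPKM against 34.2 to 38.0 FPKM, and the lower row holds MRPS6 and MRPL24, which were lower in some or all lines, and MRPL33 and MRPS31, the least and the most lowered by CYC065 after spike-in scaling.

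Members of known role outside these extremes were also measured. MRPL12 read 157 ± 5.21 FPKM in SH-EP, 199 ± 30.02 in WT and 126 ± 19.7 in S62A (SD, n = 3), higher in WT (0.33, adjusted p = 0.0126) and T58A S62A (0.31, adjusted p = 0.0208) and lower in S62A (-0.33, adjusted p = 0.0128). MRPL41, of the large subunit, rose in WT, T58A and T58A S62A (0.45, 0.44 and 0.43, adjusted p = 0.00313, 0.00438 and 0.00462) and had 0.01 in S62A (adjusted p = 0.958). The paralogs MRPS18A, MRPS18B and MRPS18C, of which the first sits in the large subunit and the others in the small, had mean changes of 0.26, 0.49 and 0.49 (adjusted p = 0.00461, 5.35e-09 and 4.76e-07). MRPS36 rose by a mean of 0.38 (adjusted p = 0.000434). On the spike-in scale the mean changes of these 6 genes were -0.75 to -1.13.

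MRPL23 stands on the same arm of chromosome 11 as the imprinted H19 RNA gene, with 38566 bases between the end of its canonical transcript and the near end of H19. The annotated MRPL23 gene reaches further, to base 2005752 of GRCh37, where the near end of H19 lies at 2016396. H19 had means of 5.65 FPKM in SH-EP and of 289 FPKM (S62A) to 1108 FPKM (WT) over the MYCN lines in DMSO. MRPL23 itself read 60.2, 62.5 and 60.1 FPKM in SH-EP and 53.8 to 99.4 FPKM in the 12 MYCN libraries, and passed the test in WT only (0.36, adjusted p = 0.0211), the 3 other lines having -0.06, 0.21 and 0.28, and its mean change on the spike-in scale was -1.05.

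The summed level of the 77 genes gives the scale of the whole. It was 3963 ± 32.4 FPKM in SH-EP and 5563 ± 438 in WT, 5140 ± 164 in T58A, 4548 ± 179 in S62A and, for the double mutant, 5331 ± 214 (SD, n = 3), or 1.40, 1.30, 1.15 and 1.35 times SH-EP, and each MYCN library exceeded each SH-EP library. Of the 4 MYCN lines S62A was lowest in the sum and also lowest in MYCN, whose part in the result was not tested. That line held the lowest of the 4 changes for 47 of the 77 genes, and WT the highest for 42. The lines did not differ from SH-EP in MYCN alone. As deposited, the related gene MYC was lower in all 4, by a mean of -2.51 on the log2 scale (limma, adjusted p = 9.5e-14). Its change was smallest for S62A (-1.62), followed by WT (-2.15), the double mutant (-3.08) and T58A (-3.20). The part of MYC in the levels of the 77 genes was not tested either. On the spike-in scale SH-EP was highest, its sum of 12617 ± 379 lying above 7568 ± 2053, 8605 ± 1918, 3748 ± 360 and 9554 ± 946 (SD, n = 3).

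**Figure D3:**
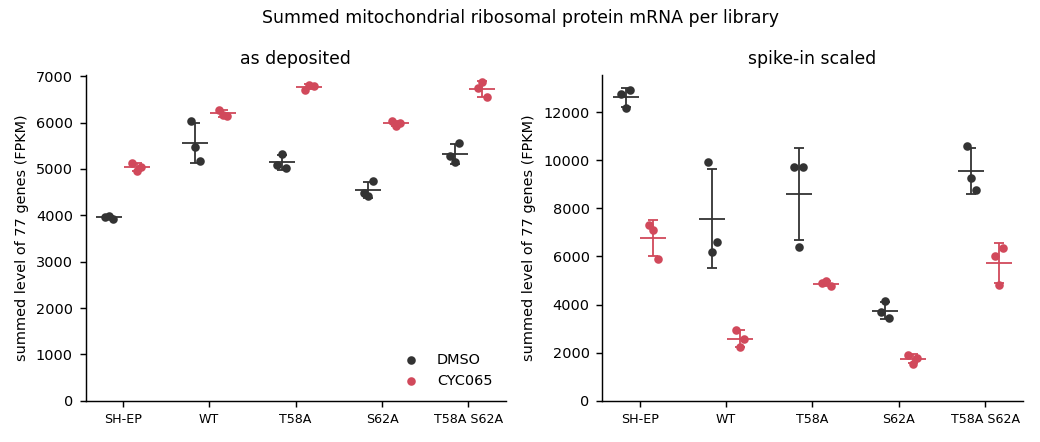
Summed level of the 77 genes in each library, in FPKM as deposited (left) and after scaling to the spike-ins (right), by line, with points for libraries and bars for the mean ± SD of 3. SH-EP in DMSO is the lowest group on the left, at 3963, and the highest on the right, at 12617, and the effect of CYC065 is upward on the left and downward on the right.

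Mutant lines were compared with the WT line in DMSO to ask how these mRNAs differed between them. MYCN itself differed from WT by -0.60 in T58A, -1.16 in S62A and 0.02 in the double mutant on the log2 scale. MYC differed from WT as well, with -1.06 for T58A, 0.53 for S62A and -0.94 for the double mutant. The site changes, the levels of MYCN and MYC and the derivation of a line cannot be told apart here. These 3 comparisons share the WT libraries. In S62A 0 genes were higher by limma at an unadjusted p under 0.05. At the adjusted threshold 0 were higher and 39 lower there (10.1% and 14% of all tested genes), with a median of -0.25 against -0.02 for all. In T58A 4 were higher and 17 lower (10.7% and 13%), with a median of -0.09, and in the double mutant 2 were higher and 16 lower (9.43% and 14.2%), with a median of -0.07. Without WT library 1, whose summed level of 6034 FPKM was above the 5170 and 5483 of the other two, the lower counts were 21 in S62A, 11 in T58A and 12 in the double mutant, and without library 1 of the double mutant its count of 16 was 7. With spike-in scaling the lower counts were 0 in T58A, 77 in S62A and 0 in the double mutant (0.458%, 74.8% and 1.02% of all tested genes).

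The lowest change in S62A was that of MRPL24 (-0.74, SE 0.07, adjusted p = 6.94e-08). In T58A it was that of MRPL33 (-0.64, adjusted p = 4.86e-07), which read 156, 151 and 132 FPKM there and 216, 240 and 230 FPKM in WT, so that T58A stood at the level of SH-EP. In T58A S62A it was that of MRPL47, a large-subunit protein, which read 71.6, 85.3 and 86.5 FPKM against 118, 115 and 110 FPKM in WT (-0.50, adjusted p = 3.44e-05). MRPL47 was also lower in T58A (-0.61, adjusted p = 3.72e-06) and S62A (-0.44, adjusted p = 0.000159). MRPS24, of the small subunit, was the highest in both lines with T58A, at 230, 262 and 237 FPKM in T58A and 244, 211 and 263 in the double mutant against 197, 172 and 154 in WT (0.48 and 0.46, adjusted p = 4.64e-05 and 6.85e-05). A readthrough transcript, URGCP-MRPS24, overlaps MRPS24 and may take part of its reads. In S62A no gene passed upward, and the highest value was 0.09 for MRPS31 (adjusted p = 0.77).

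CYC065 was compared with DMSO within each line, after scaling to the spike-ins, because an inhibitor of transcription can change the amount of mRNA per cell. The mRNAs of the mitochondrial ribosome fell in all 5 lines by amounts near the median of all tested genes, though as deposited more of them were higher than lower. In SH-EP 72 of the 77 were lower (75.7% of all tested genes), and the count was 77 (93.7%) for WT, 71 (84.2%) for T58A, 76 (90.2%) for S62A and 68 (76.3%) for the double mutant. By limma 0 genes were higher in any line at the adjusted threshold, where 0.907%, 0.769%, 1.25%, 0.968% and 1.85% of all tested genes were. At an unadjusted p under 0.05, for which all tested genes were not counted, 0 of the 77 were higher as well. The median changes were -1.11, -1.59, -0.88, -1.31 and -0.88, against -1.06, -1.57, -1.08, -1.35 and -0.97 for all tested genes. In all 4 MYCN lines 67 genes were lower and 0 higher (74% and 0.544% of all tested genes), and in the mean of those lines 77 were lower and 0 higher by limma (94.1% and 1.73%).

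In the values as deposited, genes of the family lay on both sides of 0, as all genes did. In SH-EP 33 genes were higher and 26 lower (42.7% and 33.5% of all tested genes), in WT 32 and 23 (37% and 34.2%), in T58A 46 and 13 (38.1% and 33.3%), in S62A 39 and 16 (38.8% and 34.6%), and in the double mutant 42 and 18 (38.6% and 34.2%), with medians of 0.14, 0.09, 0.31, 0.19 and 0.20. The summed level went to 0.537, 0.341, 0.566, 0.465 and 0.599 of its DMSO value on the spike-in scale and to 1.27, 1.11, 1.32, 1.32 and 1.26 times that value as deposited. As a percentage of the library's total FPKM, which also rose, the 77 genes fell in all 5 lines. The means in DMSO and with CYC065 were 0.943% and 0.692% in SH-EP, 1.18% and 0.867% in WT and 1.14% and 0.986% in T58A. They were 1.05% and 0.822% in S62A and 1.17% and 0.933% in the double mutant. In these bulk samples fewer cells behind a given amount of spike-in and less mRNA per cell cannot be told apart.

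**Figure D4:**
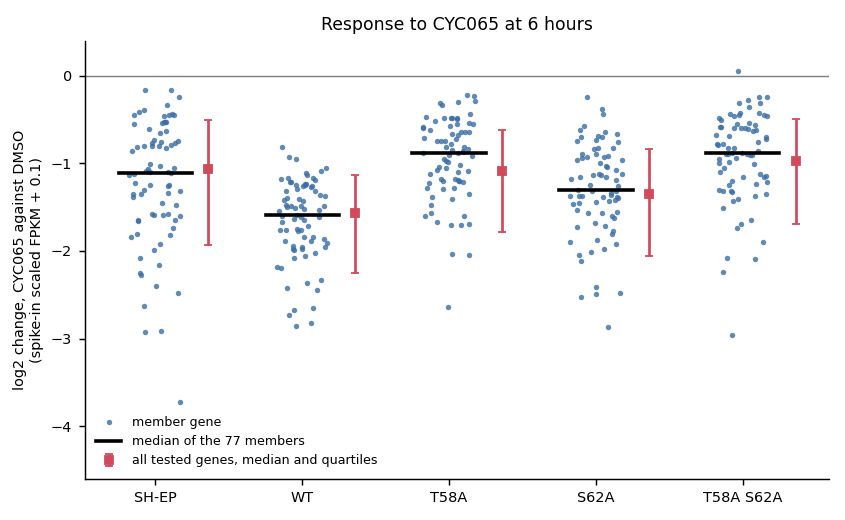
Log2 change of each of the 77 genes with CYC065 against DMSO in each line, from spike-in scaled FPKM + 0.1 (blue points, spread sideways at random), with the median of the 77 (black bar) and, in red, the median and quartiles of all 11575 tested genes. The black bars lie within the red quartile ranges in all 5 lines, and all points but 1 lie below 0. As deposited, without that scaling, the medians of the 77 were above 0.

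Within the family the response ranged widely. MRPS31, a small-subunit protein found only in mitochondria (GRCh37 chr13:41303264-41345326), fell furthest. Its deposited levels went from 10.3, 11.6 and 12.9 FPKM in DMSO to 1.63, 2.60 and 1.94 FPKM with CYC065 in SH-EP, and from 13.9 to 21.0 FPKM to 4.59 to 9.06 FPKM over the MYCN lines, with no overlap between treatments in any line. On the spike-in scale the log2 changes were -3.72 in SH-EP, -2.73 in WT, -2.64 in T58A, -2.86 in S62A and, for the double mutant, -2.96 (SE 0.26 each, adjusted p from 9.56e-13 to 8.74e-10). Its 4 annotated pseudogenes can take or lend reads.

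MRPS2, the gene of largest change with MYCN, came next, from 34.2 to 38.0 FPKM in DMSO to 10.4 to 12.4 FPKM with CYC065 in SH-EP and from 59.6 to 98.0 FPKM to 28.2 to 61.6 FPKM in the MYCN lines, with log2 changes of -2.92, -2.85, -2.05, -2.50 and -2.08 on the spike-in scale. MRPL46, of the large subunit, changed by a mean of -2.37 over the MYCN lines (adjusted p = 8.14e-19), MRPS26, of the small, by -2.20 (adjusted p = 6.79e-18), MRPL2, which lies by the peptidyl transferase centre, by -2.11 (adjusted p = 4.06e-16) and MRPS18A by -2.06 (adjusted p = 1.15e-16). These 6 were lower in all 5 lines, and as deposited their mean changes were -0.70 to -1.46. MRPS11, named here for the promoter region it shares with MRPL46, changed by -1.12 (adjusted p = 8.64e-11), and against SH-EP in DMSO MRPS11 had a mean change of 0.18 and MRPL46 one of 0.72. MRPS18B and MRPS18C, the paralogs of MRPS18A, changed by -1.67 and -1.09, the latter by 0.27 as deposited.

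At the other end stood MRPL33 (GRCh37 chr2:27994584-28210954), MRPL53, MRPL23, MRPL41, MRPL11 and MRPL42, all of the large subunit. On the spike-in scale MRPL33 read 479, 480 and 442 in DMSO and 434, 453 and 366 with CYC065 in SH-EP, and 396, 319 and 296 against 375, 298 and 375 in the double mutant, where the treatments overlapped. It passed the test in WT only (-0.81, adjusted p = 4.79e-05), with -0.17 in SH-EP, -0.34 in T58A, -0.24 in S62A and 0.05 in the double mutant. As deposited its level went up, from 135 to 157 FPKM to 305 to 315 FPKM in SH-EP. MRPL23 passed in WT and S62A (-1.14 and -0.43, adjusted p = 6.37e-06 and 0.0414), and MRPL11, at the base of the stalk, in WT, S62A and T58A S62A (-1.09, -0.68 and -0.46). MRPL42 passed in all 5 lines, from -0.44 to -0.95. As deposited the mean changes of these 6 genes over the MYCN lines were 0.71 to 1.03.

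The small-subunit genes found only in mitochondria had the lowest median of the classes, -1.40 over the MYCN lines for 10 genes, against -1.10 for the 16 small-subunit genes with a bacterial counterpart, -1.10 for the 30 of that kind in the large subunit and -0.98 for the 20 large-subunit genes found only in mitochondria, and these differences were not tested. The order of the genes was much the same with and without the transgene. Across the 77, the change in SH-EP and the mean change in the MYCN lines, which come from separate libraries, had a Pearson r of 0.960, against 0.786 across all tested genes, a description over genes that share libraries. The level in DMSO had a Pearson r of 0.268 with the mean change in the MYCN lines (Spearman rho 0.290), against an r of 0.0021 across all tested genes. Transcript length on a log scale had an r of -0.086 with that change and a rho of -0.23.

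**Figure D5:**
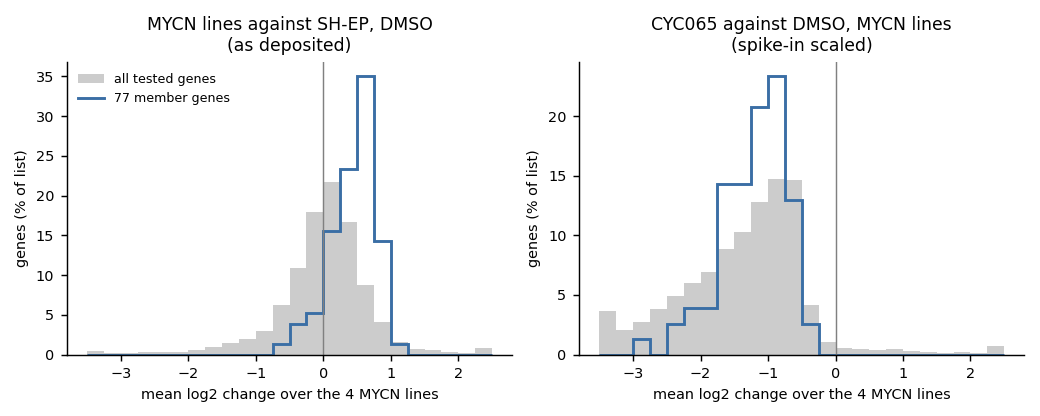
Distribution of the mean log2 change over the 4 MYCN lines, as the percentage of each list in bins, for the 77 genes (blue line) and all 11575 tested genes (grey), with MYCN lines against SH-EP in DMSO as deposited on the left and CYC065 against DMSO, spike-in scaled, on the right. The end bins also hold the values beyond them. The blue line lies to the right of the grey on the left panel, with medians of 0.50 and 0.06, and over the grey on the right panel, with medians of -1.12 and -1.23, and with spike-in scaling the median on the left was -0.74 for the 77 and -1.17 for all genes.

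Whether the MYCN lines responded to CYC065 other than SH-EP was tested as the difference of the responses. Against SH-EP, 0 genes responded upward and 12 downward in WT (1.89% and 16.3% of all tested genes), 1 and 0 in T58A (2.28% and 0.311%), 0 and 0 in S62A (3.08% and 1.87%) and 2 and 0 in the double mutant (5.21% and 0.199%). In the mean of the 4 lines it was 1 and 0 (4.17% and 1.93%). At an unadjusted p under 0.05 limma gave 1 and 31 in WT, 15 and 0 in T58A, 2 and 1 in S62A, 13 and 0 in the double mutant and 7 and 2 in the mean. All tested genes were not counted at the unadjusted threshold, so these counts do not place the family among them. The median differences were -0.50, 0.20, -0.13 and 0.24, against -0.52, -0.01, -0.29 and 0.08 for all tested genes. The count of 12 in WT was 0 without any one SH-EP DMSO library, SH-EP CYC065 library 1 or 2, WT CYC065 library 2 or 3 or WT DMSO library 1, and 30 without WT DMSO library 2, 23 without SH-EP CYC065 library 3 or WT CYC065 library 1. The count of 1 in T58A was 0 without any one SH-EP DMSO library, SH-EP CYC065 library 3, T58A CYC065 library 1 or 3 or T58A DMSO library 2, and 4 without T58A DMSO library 1 and 2 without T58A DMSO library 3. In the mean of the 4 lines the largest differences were those of MRPS31 (0.93, adjusted p = 0.0533), MRPL44 (0.86, adjusted p = 0.0104) and MRPS18A (0.57, adjusted p = 0.154), and the lowest those of MRPL11 (-0.47), MRPL48 (-0.46) and MRPS25 (-0.42), with adjusted p of 0.194, 0.193 and 0.255. With the 21 spike-ins of at least 50 FPKM alone, MRPL44 had 0.72 (adjusted p = 0.219). The gene that passed in the mean, MRPL44, encodes a large-subunit protein with an RNase III-like fold. Its deposited level in SH-EP went from 15.5, 17.2 and 16.3 FPKM to 8.19, 7.84 and 8.41 FPKM, and in the double mutant from 20.6, 22.4 and 23.0 FPKM to 26.4, 24.3 and 24.7 FPKM. The spike-in scaled response was -2.25 in SH-EP and -0.89 in the double mutant, a difference of 1.36 (SE 0.26, adjusted p = 0.0014).

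Other proteins of mitochondrial gene expression were measured beside the family, and the values here are as deposited, 0 of these genes being higher in the mean of the MYCN lines with spike-in scaling (1.1% of all tested genes). As deposited, 34.6% of all tested genes were higher in that mean and 26.3% lower, shares that stand beside each of the counts that follow. Of 6 mitochondrial ribosomal proteins with other names, 4 were higher and 1 lower in the mean of the MYCN lines, GADD45GIP1, of the large subunit, having 0.64 and DAP3, of the small, -0.37 (adjusted p = 2.04e-07 and 2.36e-08). Of 10 translation factors 5 were higher, TSFM, the elongation factor Ts, having 1.01 (adjusted p = 2.77e-10), and the lowest of the 10 was the initiation factor gene MTIF3 at 0.02 (adjusted p = 0.864). Of 20 assembly factors 16 were higher, with a median of 0.45 and with the rRNA methyltransferase gene MRM1 at 1.01 and the GTPase gene MTG1 at -0.10 (adjusted p = 1.85e-05 and 0.227). Of 8 genes of mitochondrial transcription and RNA stability 6 were higher, with SLIRP at 0.97 and TFB2M at 0.23 (adjusted p = 9.67e-13 and 0.00121).

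With CYC065 on the spike-in scale, all 6, 10, 20 and 8 of these were lower in the mean of the MYCN lines (94.1% of all tested genes were), with medians of -1.01, -1.29, -1.93 and -1.15. The assembly factors thus had a lower median than the ribosomal proteins they act on, at -1.12, a difference that was not tested. RNMTL1, an rRNA methyltransferase gene, changed by -3.22 (adjusted p = 4.69e-21), and C1QBP, the least changed of the assembly list, by -0.63 (adjusted p = 9.14e-08).

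Genes for the ribosome of the cytosol and for the respiratory chain served as references. In DMSO the 77 tested genes of the cytosolic ribosome had median changes of 0.38 in WT, 0.26 in T58A, 0.20 in S62A and, for the double mutant, 0.34, and 75 genes of respiratory chain subunits 0.37, 0.28, 0.22 and 0.32, each below the medians of the mitochondrial ribosome (0.59, 0.48, 0.37 and 0.51), and with spike-in scaling the mean changes had medians of -0.96, -0.94 and -0.74 for the 3 lists. With CYC065 on the spike-in scale the mean change over the MYCN lines had a median of -0.52 for the cytosolic ribosome and -0.59 for the respiratory chain, against -1.12 for the mitochondrial ribosome. In SH-EP, 1 of 77 cytosolic and 15 of 75 respiratory genes were lower, against 72 of the 77 mitochondrial ones and 75.7% of all tested genes. The differences between these lists were not tested.

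Genes with and without the promoter motifs had overlapping changes. Over the MYCN lines in DMSO the 7 genes with CACGTG had a median change of 0.51 and the 62 without it 0.49, and 5 and 39 of them were higher in all 4 lines. The 28 genes with CCGGAAG had medians of 0.40 with MYCN and -0.98 with CYC065, and the 41 without it 0.57 and -1.21. These are descriptions over genes, with no test.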

How the data were processed

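Poly(A) RNA-seq was done on 30 libraries, 3 for each of 5 lines in DMSO or CYC065. The authors aligned reads to hg19 with HISAT and computed FPKM with Cufflinks, and deposited 1 table of FPKM values per gene, in which libraries are named by group. The annotation behind the gene symbols is not given in the sources used here, and no read counts were used. From these values log2(FPKM + 0.1) was fitted with limma 3.58.1 in R 4.3.3 over all 10 groups, with moderated tests and Benjamini-Hochberg adjustment over the 11575 genes averaging at least 1 FPKM. Comparisons of lines used the values as deposited. Those of CYC065 used values scaled by the median of the 55 of 92 spike-ins averaging at least 1 FPKM. FPKM is relative to the mapped fragments of a library, so a change in total mRNA does not show in it. Spike-in scaling carries the pipetting error of the spike-ins, with an SD of the members' median level between libraries of a group of 0.19 against 0.063 (log2). The script was tested on simulated data.

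Genes named were the 6 highest and 6 lowest mean changes with MYCN and with CYC065, the 3 highest and 3 lowest differences of response, the 4 highest and 4 lowest levels in SH-EP, the highest and lowest change of each mutant against WT, and genes of known role. The members, the rule and the lists of related genes were chosen with earlier results of these data known. Positions are from GENCODE on GRCh37, and promoters from RefSeq on GRCh38.p14. Alternatives were other pseudocounts, filters, scalings and spike-ins, fits restricted to the groups being compared, a call that also needs a 1.5-fold change, leaving out each library and a block on the column number.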

Additional observations from a re-analysis of the deposited data

Results flagged for a closer look

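These results were picked out because the response to CYC065 of a MYCN line differed from that of SH-EP in a direct limma test of the difference on the spike-in scale. In WT the response was lower than in SH-EP by a log2 difference of -0.93 for MRPL11, -0.66 for MRPL13, -0.74 for MRPL20, -0.90 for MRPL23, -0.88 for MRPL24, -0.80 for MRPL41, -0.74 for MRPL43, -0.85 for MRPL48, -0.78 for MRPL51, -0.81 for MRPS24, -0.79 for MRPS25 and -0.87 for MRPS33, with adjusted p from 0.0303 to 0.0498. The median difference over all tested genes in WT was -0.52, and WT DMSO library 1 had a spike-in factor of 1.64 where the other two had 1.13 and 1.28. The part of that library in these values was not tested beyond leaving it out.

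MRPL44 responded less than in SH-EP in T58A (1.03, adjusted p = 0.0295), in T58A S62A (1.36, adjusted p = 0.0014) and in the mean of the MYCN lines (0.86, adjusted p = 0.0104), where the median difference over all tested genes was -0.01, 0.08 and -0.20. MRPS18B did so in T58A S62A (0.84, adjusted p = 0.042).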

How the results depend on the processing

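The scaling decided direction. With spike-in scaling the comparison of the MYCN lines with SH-EP gave, in WT, T58A, S62A and the double mutant, 0, 1, 0 and 0 higher and 65, 43, 77 and 32 lower, medians of -0.66, -0.47, -1.58 and -0.32, and 0 higher and 31 lower in all 4 lines. The share of all tested genes lower in all 4 lines was not computed on this scale. The mean over the 4 lines turned to a median of -0.74, with MRPL12 at -1.13, MRPL14 at -0.37, MRPL23 at -1.05, MRPL39 at -0.26, MRPL41 at -0.91, MRPS12 at -0.47, MRPS17 at -0.31, MRPS18A at -0.98, MRPS18B at -0.75, MRPS18C at -0.76, MRPS2 at -0.13, MRPS28 at -0.28, MRPS30 at -0.35 and MRPS36 at -0.87. Against WT it gave 77 lower in S62A, with MRPS31 at -0.60, 0 lower and a median of 0.21 in T58A, and 8 higher, 0 lower and a median of 0.36 in the double mutant. Of all tested genes 74.8% were lower in S62A, 0.458% in T58A and 1.02% in the double mutant. In the double mutant 23.2% of all tested genes were higher, with a median of 0.39, and their median in T58A was 0.28.

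Without spike-in scaling CYC065 gave, in SH-EP, WT, T58A, S62A and the double mutant, 33, 32, 46, 39 and 42 higher and 26, 23, 13, 16 and 18 lower, with medians of 0.14, 0.087, 0.31, 0.19 and 0.20. Over the MYCN lines the median was 0.25, with MRPL11 at 0.73, MRPL12 at 0.32, MRPL23 at 0.83, MRPL33 at 1.03, MRPL41 at 0.78, MRPL42 at 0.71, MRPL53 at 0.87, MRPS18C at 0.27 and MRPS36 at 0.43. The differences of response were then 11 and 10 (higher and lower) in WT, 23 and 2 in T58A, 19 and 3 in S62A, 15 and 5 in the double mutant, with medians of -0.062 in WT, 0.12 in S62A and 0.064 in the mean. Of all tested genes 10.4% and 18.1% were higher and lower in WT and 9.9% and 14% in T58A. The shares were 10.9% and 13.7% in S62A and 10.6% and 14.8% in the double mutant. The medians of all tested genes were -0.12 in WT, -0.078 in S62A and -0.11 in the mean. With libraries centred on their median CYC065 gave 42, 44, 55, 53 and 49 higher and 22, 13, 7, 11 and 9 lower, with medians of 0.27, 0.26, 0.50, 0.36 and 0.35 and 0.42 in the mean, and MRPL11 at 0.90, MRPL12 at 0.49, MRPL23 at 1.00, MRPL33 at 1.20, MRPL41 at 0.95, MRPL42 at 0.88, MRPL53 at 1.04, MRPS12 at 0.0043, MRPS18C at 0.44, MRPS30 at 0.052 and MRPS36 at 0.60. The differences of response were 15 and 8 in WT, 25 and 0 in T58A, 22 and 1 in S62A, and 16 and 5 in the double mutant, with medians of -0.023 in WT, 0.15 in S62A and 0.097 in the mean. With 21 spike-ins of at least 50 FPKM, 47 were lower in T58A, no difference of response passed (0 in WT, 0 in T58A and 0 in the double mutant), and the median in the double mutant was -0.00129. The median change with CYC065 was then -1.61 in S62A and -1.08 in the double mutant (from -1.31 and -0.88), and the median difference of response in S62A was -0.47 (from -0.13). Shares of all tested genes were not computed for centred libraries or for the 21 spike-ins. The counts from those settings therefore do not place the family among all genes.

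A call that also needed a 1.5-fold change left 39 higher and 0 lower in WT against SH-EP, 27 and 0 in T58A, 18 and 2 in S62A and 33 and 1 in the double mutant, with 12 higher and 0 lower in all 4, and, against WT, 0 higher and 2 lower in T58A, 4 lower in S62A, and 0 and 0 in the double mutant. Fitting the compared groups alone, which gives no count over all 4 lines, left 1 lower in WT against SH-EP, 2 higher and 11 lower in T58A, 16 lower in S62A, and 0 and 7 in the double mutant against WT, and for the differences of response 2 lower in WT, 0 higher in T58A, 1 in S62A and 5 in the double mutant. For those differences a pseudocount of 1 gave 1 higher and 7 lower in WT, 4 higher in T58A and 1 in S62A, a filter at 5 FPKM 1 higher and 19 lower in WT, and no filter 0 lower in WT and 1 higher in the double mutant. A pseudocount of 0.01 moved 1 of these counts, that of lower differences of response in WT, from 12 to 14. Shares of all tested genes were not computed for the 1.5-fold call or the other settings of this paragraph. Its counts therefore do not place the family among all genes.

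Leaving out single libraries gave ranges of 1 to 3 lower in WT against SH-EP and 1 to 2 lower in all 4 lines (both at 1 without SH-EP library 2 or WT library 2, the latter also without WT library 3), 11 to 20, 21 to 45 and 7 to 15 lower in T58A, S62A and the double mutant against WT, 1 (without WT library 2) to 5 (without WT library 1) higher in the double mutant against WT, and -0.0056 to 0.23 for MRPS31 in S62A against WT. For the differences of response the ranges were 0 to 30 lower in WT, 0 to 4 higher in T58A, 1 to 4 higher in the double mutant, and medians of -0.025 to 0.31 in T58A and -0.12 to 0.0094 in the mean. The cause was not tested. The columns of the table are numbered 0 to 2 where the labels number replicates 1 to 3. Same-numbered libraries had correlations of deviations of -0.12 to 0.089 between MYCN lines and SH-EP (0 of 12 above 0.1) and -0.074 to 0.072 between treatments (0 of 15). Between mutants and WT these correlations were -0.041 to 0.15 (3 of 9 above 0.1). The 3 libraries of the double mutant each correlated best with the WT library of the same number, at 0.086 to 0.12. A replicate block on that number, chosen after seeing the data, gave for the differences of response 1 higher and 23 lower in WT, 6 higher in T58A and 4 higher in the double mutant, kept the other counts within 1.5 times and changed 1 of 65 calls of named genes (MRPS31 in the mean difference of response, 0.93 with an adjusted p of 0.0391). With 3 libraries a group an exact permutation test cannot go below 0.1, and depth limits no member, the lowest being at 1.63 FPKM.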
